A study of Mus musculus with 8 samples.

Results

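Glucose enters a heart muscle cell through transporters and is trapped there by phosphorylation, and the steps that follow commit it to glycolysis. The 10 genes described here cover that route in mouse hearts: the transporters Slc2a1 and Slc2a4, their inhibitor Txnip, the hexokinases Hk1 and Hk2, the phosphofructokinases Pfkm, Pfkl and Pfkp, and the bifunctional enzymes Pfkfb1 and Pfkfb2. They were taken by name from a table of 55573 genes, not by their values, and all 10 were counted in every library and passed the filter on low counts.

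The hearts came from male db/m and db/db mice of the strain C57BLKS/J at 24 weeks of age, with 4 RNA sequencing libraries per genotype. Mice of the db/db genotype are homozygous for a recessive mutation of the leptin receptor and become obese and diabetic, and their heterozygous db/m counterparts are the usual controls. No treatment is named in the labels. All cells of a db/db animal carry the mutation, so a difference in the heart cannot be told apart from an effect of the obesity and the blood glucose of the whole animal. The labels do not say that each library came from its own animal, so the tests measure the spread between libraries, which may be partly technical.

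In the resting heart fatty acids are the main fuel, and glucose uptake is the step at which insulin acts. Insulin brings the transporter GLUT4 (Slc2a4) from vesicles inside the cell to its surface, while GLUT1 (Slc2a1) supplies basal uptake. TXNIP is an arrestin-like protein that promotes the removal of both transporters from the surface and binds thioredoxin. Its gene is among the most glucose-responsive known: sugar phosphates activate the transcription factor MondoA (Mlxip) or its relative ChREBP (Mlxipl), which bind carbohydrate response elements with their partner Mlx. Phosphofructokinase catalyses the committed step of glycolysis and is activated by fructose 2,6-bisphosphate, which the bifunctional enzymes make and break down.

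Txnip is the member with the clearest difference between the genotypes, so the bases before its start are shown beside those of Arrdc4, a related arrestin gene that is also known to respond to glucose. The sequences are from RefSeq on GRCm38.p6, read 5′ to 3′ along the gene's strand, and end at the base before the annotated start. Capitals mark matches to the carbohydrate response element (CACGNG, any 5 bases, CNCGNG), the E-box (CACGTG), the CCAAT box (CCAAT) and a forkhead motif (GTAAACA), each searched on both strands. An E-box could lie within the longer element, but no marked matches overlap in these windows.
Txnip, chr3:96557707-96557956, plus strand: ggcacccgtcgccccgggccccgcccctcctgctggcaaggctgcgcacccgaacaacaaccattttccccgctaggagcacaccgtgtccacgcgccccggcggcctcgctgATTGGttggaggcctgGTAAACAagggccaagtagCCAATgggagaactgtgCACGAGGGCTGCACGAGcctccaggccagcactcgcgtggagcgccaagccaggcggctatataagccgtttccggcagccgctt
Arrdc4, chr7:68749239-68749488, minus strand: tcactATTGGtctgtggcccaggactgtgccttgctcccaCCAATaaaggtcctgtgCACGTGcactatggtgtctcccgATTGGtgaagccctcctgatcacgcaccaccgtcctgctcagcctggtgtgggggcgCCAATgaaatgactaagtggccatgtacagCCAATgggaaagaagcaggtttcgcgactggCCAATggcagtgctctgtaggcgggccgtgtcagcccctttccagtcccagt

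The Txnip window holds 1 match to the carbohydrate response element, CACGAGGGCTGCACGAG at chr3:96557872-96557888, which lies 85 to 69 bases before the start. Of 32851 promoter windows of the same length, 92 hold such a match (0.28%), and among the 9 members with a window in the table Txnip alone holds one. A CCAAT box stands 102 to 98 bases before the start and another, on the opposite strand, 137 to 133 bases before it, with the forkhead motif between them at 121 to 115. CCAAT occurs in 33.8% of the windows and the forkhead motif in 3.17%. The Arrdc4 window holds 6 CCAAT boxes and 1 E-box, a motif found in 6.02% of windows, and no match to the 17-letter element. A match describes the letters of the pattern given here and does not show that a factor binds there. The lack of a match does not show that a window has no such element.

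**Figure D1:**
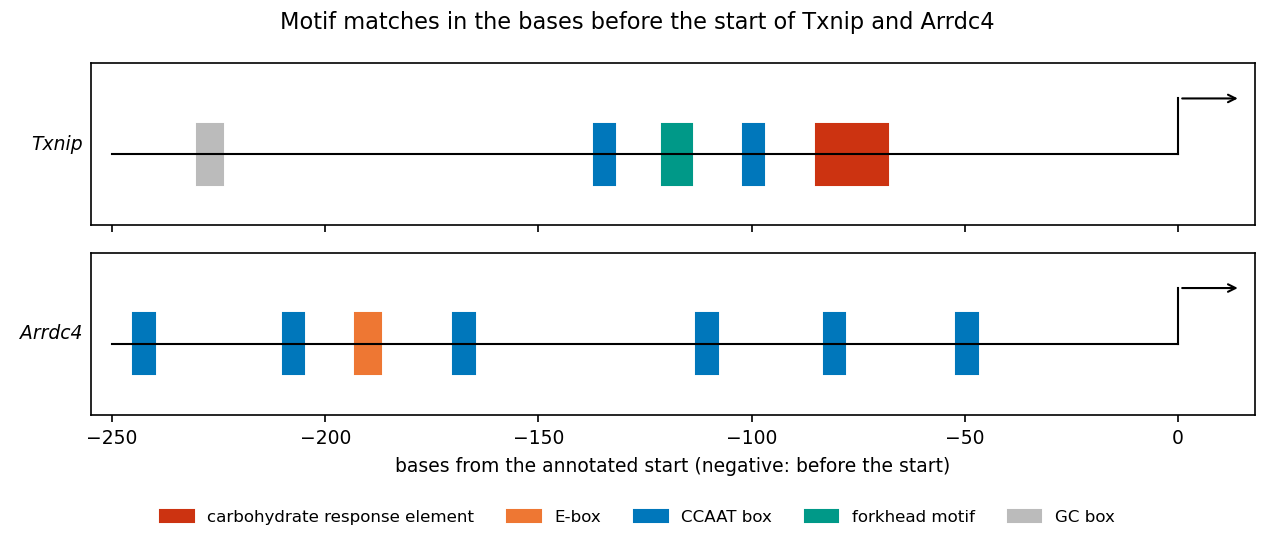
Positions of motif matches in the bases before the annotated start of Txnip (top) and Arrdc4 (bottom), in bases from the start, with the arrow marking the start and the direction of transcription. Txnip has the carbohydrate response element 85 to 69 bases before its start, next to 2 CCAAT boxes and the forkhead motif, and Arrdc4 has 6 CCAAT boxes and 1 E-box. GC boxes (GGGCGG, in 32.7% of windows) are drawn in grey.

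Library totals ranged from 19541757 to 22249911 counts. Ventricular heart muscle genes (8 markers, Myh6 and Tnnt2 among them) summed to between 28290 and 37860 CPM (counts divided by the scaled library size) in every library, a sum led by Myh6. In db/m replicate 3, 6 of the 8 were lower than in every other library, for instance Myl2 at 117 CPM against 593 to 999, Tnni3 at 417 against 1127 to 1396 and Myl3 at 758 against 2334 to 4097. Myh6 and Ryr2 went the other way and were highest there, at 20479 CPM against 13792 to 17324 and at 1458 against 847 to 1344. Liver markers summed to at most 1.08 CPM, and 5 of 7 skeletal muscle markers stayed under 1 CPM, the others being Acta1 and Ckm, which heart muscle also expresses. Replicates 1 and 3 of db/m stood apart: all 9 adipocyte markers and all 7 atrial markers were higher in both than in the other 6 libraries. The adipocyte list summed to 423 and 1248 CPM there against 24.6 to 37.8 elsewhere, and the atrial list to 1933 and 4542 against 19.5 to 135. Fibroblast markers also summed highest in these 2 libraries (1794 and 1638 CPM), though only 3 of the 6 were higher in both than in all others. Dcn, which leads the sum, had 839 CPM in db/m replicate 3 against 880 in db/db replicate 2. Ucp1, the uncoupling protein of brown fat, was at 0 counts in some of the other 6 and at most 2. In bulk RNA, fewer cells of a type and less RNA per cell cannot be told apart, and fat cells also express Slc2a4 and Hk2, so the fold changes of the members are also given without these 2 libraries, as are those of other genes where that moves them by over 1.5 times or turns their sign.

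The comparison of db/db with db/m asked which of these genes differ with the diabetic genotype. By edgeR's quasi-likelihood test, adjusted by the Benjamini-Hochberg method over all 17411 tested genes, 0 of the 10 members passed an adjusted p of 0.05, where 0.00574% of all tested genes did. By unadjusted p under 0.05 there were 2 higher members, Txnip and Pfkl (5.12% of all genes), and 0 lower (7.84% of all genes). DESeq2 called 1 of the 10, Txnip (2.17% of all genes in either direction, 1.07% higher). So did limma-voom with sample quality weights (0.58% and 0.31%) and edgeR with no filter on low counts (0.0902% and 0.0601%). Txnip was also the 1 member with a log2 fold change of at least 1, as in 1.52% of all genes. In 3 members, Txnip, Pfkm and Pfkp, all 4 db/db libraries lay above all 4 db/m libraries, as in 5.04% of all genes. With libraries scaled by their totals alone, which moves the median of all genes by -0.11 on the log2 scale, that count was 1, Txnip. The log2 fold change was positive in 7 of 10 members (47.7% of all genes), with a median of 0.17 against -0.02 over all tested genes.

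**Figure D2:**
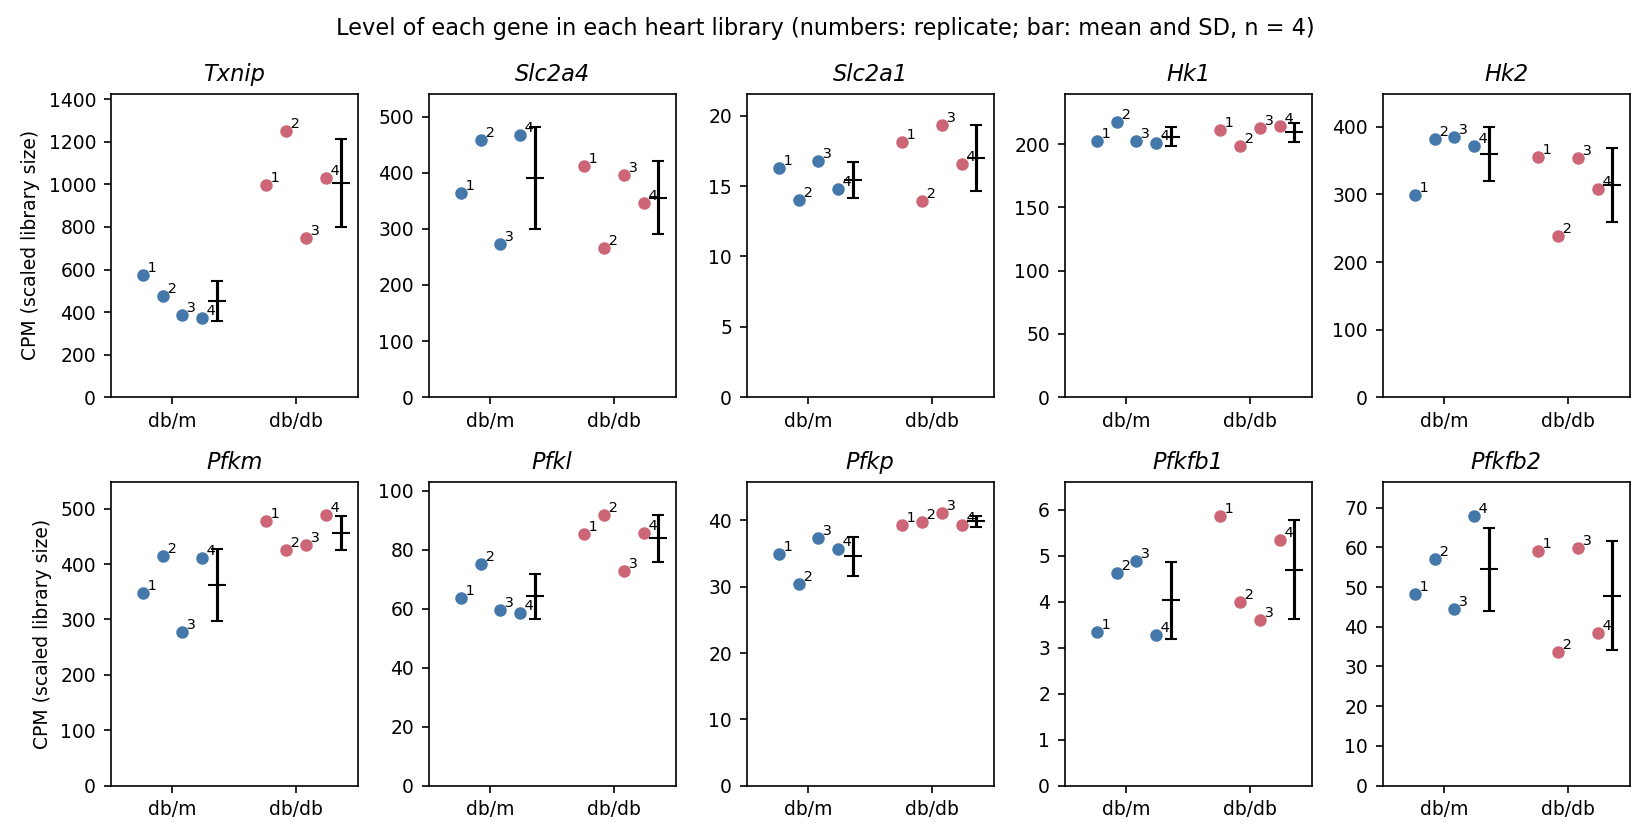
Level of each of the 10 genes in each library, in CPM on axes that start at 0. Points are libraries with their replicate number, and black bars give the mean and SD of each genotype (n = 4). Txnip lies between 372 and 576 CPM in db/m against between 749 and 1253 CPM in db/db, while Hk1 is nearly level across all 8 libraries.

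Txnip, the inhibitor of glucose uptake (ENSMUSG00000038393, chromosome 3, 96557957 to 96561883, plus strand, mm10), was 2.23-fold higher in db/db hearts. The 4 db/m libraries had 576, 475, 385 and 372 CPM and the 4 db/db libraries 996, 1253, 749 and 1028 CPM. The lowest db/db library lay above the highest db/m library. Means were 452 ± 94.4 and 1007 ± 206 CPM (SD, n = 4), a log2 fold change of 1.16 (SE 0.20). By p Txnip ranked 28 of 17411 genes, and it did not pass edgeR after Benjamini-Hochberg adjustment (adjusted p = 0.115). It passed by DESeq2 (adjusted p = 1.56e-05) and by limma-voom (adjusted p = 0.0199).

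Of the libraries with adipocyte counts, db/m replicate 1 had the highest Txnip level of its group and replicate 3 the second lowest, and the difference between the genotypes was as large without them. With both left out, the log2 fold change was 1.24 (SE 0.20) and Txnip rose by edgeR after adjustment over all genes (adjusted p = 0.0415), in a comparison that called 0.256% of genes. Without db/m replicate 3 alone it was 1.09 and also passed edgeR (adjusted p = 0.0316, where 0.6% of genes were called). Leaving out each library in turn gave 1.03 to 1.30, with edgeR adjusted p from 0.0316 to 0.364. Exons of Txnip share 606 bases (19.4% of its length) with the antisense gene Gm15441, which had 2 to 26 counts against 7830 to 26702 for Txnip.

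Of the other alpha-arrestins, Arrdc4 had 25.5 ± 4.71 CPM in db/m against 32.8 ± 6.79 in db/db (SD, n = 4; log2 fold change 0.36, SE 0.19). Arrdc2 had 3.88 ± 0.346 and 6.54 ± 1.18 CPM (0.75, SE 0.20), with all db/db libraries above all db/m libraries. Arrdc3, which takes part in the turnover of surface receptors, had 74.1 ± 21.2 and 49.9 ± 7.50 CPM (-0.57, SE 0.21; -0.19 without db/m replicates 1 and 3). Of the 8 tested genes in the list of alpha-arrestins and thioredoxins 0 passed edgeR over all genes (1 higher and 1 lower at an unadjusted p under 0.05), and DESeq2 called Arrdc2 alone (adjusted p = 0.0250). The thioredoxins and their reductases that TXNIP is linked to are in this list, and none of the 4 had an unadjusted p under 0.05 by edgeR. Of these, Txn1 is uncertain, since its near-identical copy Txn-ps1 held 10118 counts over all libraries against its own 1037.

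Slc2a4, the insulin-responsive transporter (ENSMUSG00000018566, chromosome 11, 69942539 to 69948188, minus strand), did not differ beyond the spread between libraries. The db/m libraries had 363, 458, 274 and 467 CPM and the db/db libraries 411, 267, 397 and 347 CPM. The ranges overlapped, and the lowest db/m value was that of replicate 3, one of the libraries with adipocyte counts. The log2 fold change was -0.14 (SE 0.20; edgeR, Benjamini-Hochberg adjusted p = 0.760). Without db/m replicates 1 and 3 it was -0.39 (SE 0.15), still not past the threshold (edgeR, adjusted p = 0.388), with both remaining db/m libraries above all 4 db/db libraries. The part of the adipocyte and atrial cells in this shift was not tested.

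Slc2a1, the basal transporter (ENSMUSG00000028645, chromosome 4, 119108711 to 119137983, plus strand), was low in all hearts. It had 16.3, 14.0, 16.8 and 14.8 CPM in db/m against 18.1, 13.9, 19.3 and 16.6 CPM in db/db. Groups overlapped, with db/db replicate 2 the lowest library of all (log2 fold change 0.14, SE 0.15; edgeR, Benjamini-Hochberg adjusted p = 0.666). Without db/m replicates 1 and 3 the value was 0.23 (SE 0.16). Per length, Slc2a4 made up 96.0% ± 1.30 of the summed level of both transporters in db/m against 95.4% ± 0.304 in db/db (SD, n = 4), with overlapping ranges. In db/m replicates 2 and 4 it was 97.1% and 97.0%, above all db/db libraries (95.1% to 95.8%).

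Other sugar transporters were scarce. Of 12 genes listed 8 were tested, and 0 passed edgeR over all genes (2 higher and 0 lower at an unadjusted p under 0.05). Slc5a1, the sodium-coupled transporter SGLT1, had 0.524 ± 0.405 CPM in db/m against 1.87 ± 0.166 in db/db (SD, n = 4; log2 fold change 1.84, SE 0.47). Its db/db libraries all lay above its db/m libraries, and it passed by DESeq2 (adjusted p = 0.0153) but not by edgeR (adjusted p = 0.224), on 6 to 44 counts per library (1.39, SE 0.52, without db/m replicates 1 and 3). Slc2a9, a urate carrier, had 4.05 ± 0.973 and 6.89 ± 1.2 CPM (0.76, SE 0.24) without overlap. Slc2a8 and Slc2a12, the genes of this list with the most counts, had log2 fold changes of 0.09 (SE 0.15) and -0.20 (SE 0.30), and 0.05 and -0.45 without those 2 libraries. Slc2a7 had 0 counts in all 8 libraries.

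The vesicle traffic that carries GLUT4 to the surface was measured by 14 genes, all tested, of which 0 passed edgeR over all genes (0 higher and 3 lower at an unadjusted p under 0.05; none by DESeq2 or limma-voom). Of these 3, Tbc1d1 and Sort1 had log2 fold changes of -1.35 and -1.23, which went to -0.24 and -0.02 without db/m replicates 1 and 3. Tbc1d4, the AKT substrate that holds GLUT4 vesicles back (also called AS160), had 143 ± 32.2 CPM in db/m against 110 ± 7.15 in db/db (SD, n = 4; log2 fold change -0.38, SE 0.16; -0.36 without db/m replicates 1 and 3). Lnpep, an aminopeptidase that travels in the same vesicles, and the small GTPase Rab14 had values of -0.19 (SE 0.17) and 0.0045 (SE 0.11), and -0.0029 and -0.04 without those 2 libraries. The median of the list was -0.11, and -0.06 without those 2 libraries.

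Hk1 and Hk2 encode the hexokinases that phosphorylate glucose on mitochondria and in the cytosol, Hk2 being the insulin-regulated form of muscle. Hk1 (ENSMUSG00000037012, chromosome 10, 62268855 to 62379908, minus strand) had 202, 217, 203 and 201 CPM in db/m against 211, 199, 213 and 215 in db/db. It was the steadiest of the 10 genes, with a log2 fold change of 0.02 (SE 0.11; edgeR, Benjamini-Hochberg adjusted p = 0.927). Its sign was negative with libraries scaled by totals alone (-0.09) and without db/m replicates 1 and 3 (-0.01).

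Hk2 (ENSMUSG00000000628, chromosome 6, 82725025 to 82774454, minus strand) had 299.7, 382, 386 and 372 CPM in db/m against 355, 239, 354 and 307 in db/db. Replicates 2, 3 and 4 of db/m exceeded all db/db libraries, but db/m replicate 1 lay among them, so the groups overlapped. The log2 fold change was -0.20 (SE 0.16; edgeR, Benjamini-Hochberg adjusted p = 0.580) and -0.27 (SE 0.15) without db/m replicates 1 and 3. Per length Hk2 made up 71.3% ± 2.34 of both hexokinases in db/m against 67.9% ± 3.46 in db/db (SD, n = 4), with overlapping ranges. In db/m replicates 2 and 4 it was 71.6% and 72.6%, above all db/db libraries (63.2% to 70.6%).

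All 3 phosphofructokinase genes had positive fold changes, and none passed edgeR over all genes. Pfkm, the muscle form (ENSMUSG00000033065, chromosome 15, 98092589 to 98132451, plus strand), had 347, 414, 277 and 411 CPM in db/m against 478, 425, 434 and 488 in db/db. The groups did not overlap, though db/m replicate 2 and db/db replicate 2 were close. The lowest library was db/m replicate 3, where most ventricular markers were also lowest but Myh6 and Ryr2 highest. The log2 fold change was 0.33 (SE 0.16; edgeR, Benjamini-Hochberg adjusted p = 0.396), and 0.14 (SE 0.11) without db/m replicates 1 and 3, whose part in it was not tested. With libraries scaled by their totals alone Pfkm had 0.23 (SE 0.13) and its groups overlapped. Exons of Pfkm share 341 bases (10.2% of its length) with Gm26513 on the same strand, which had 0 to 8 counts.

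Pfkl, the liver form (ENSMUSG00000020277, chromosome 10, 77986947 to 78010083, minus strand), had 63.8, 75.2, 59.4 and 58.7 CPM in db/m against 85.2, 91.8, 72.8 and 85.8 in db/db. A single db/m library, replicate 2, lay above the lowest db/db library, replicate 3. After Txnip it had the smallest p of the 10, with a log2 fold change of 0.38 (SE 0.13; edgeR, Benjamini-Hochberg adjusted p = 0.301), and 0.32 (SE 0.13) without db/m replicates 1 and 3. Leaving out each library in turn gave 0.34 to 0.47 for Pfkl and 0.23 to 0.41 for Pfkm, the latter lowest without db/m replicate 3.

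Pfkp, the platelet form (ENSMUSG00000021196, chromosome 13, 6579768 to 6648777, minus strand), had 35.0, 30.4, 37.3 and 35.6 CPM in db/m. The db/db libraries had 39.4, 39.7, 41.1 and 39.3 CPM, a narrow range that lay above every db/m library. The log2 fold change was small, 0.21 (SE 0.11; edgeR, Benjamini-Hochberg adjusted p = 0.437), and 0.26 (SE 0.11) without db/m replicates 1 and 3. With libraries scaled by their totals alone Pfkp had 0.09 (SE 0.13) and its groups overlapped. Its exons share 748 bases with the antisense gene Pitrm1, which had 343 to 528 counts per library against 620 to 902 for Pfkp, and since the use of strand is not stated these reads cannot be told apart. Among the 3 forms Pfkm took 89.7% ± 1.60 of the summed level per length in db/m against 89.8% ± 0.923 in db/db, with ranges that overlapped also without db/m replicates 1 and 3 (90.2% and 91.5% in the remaining db/m libraries, 88.4% to 90.3% in db/db).

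**Figure D3:**
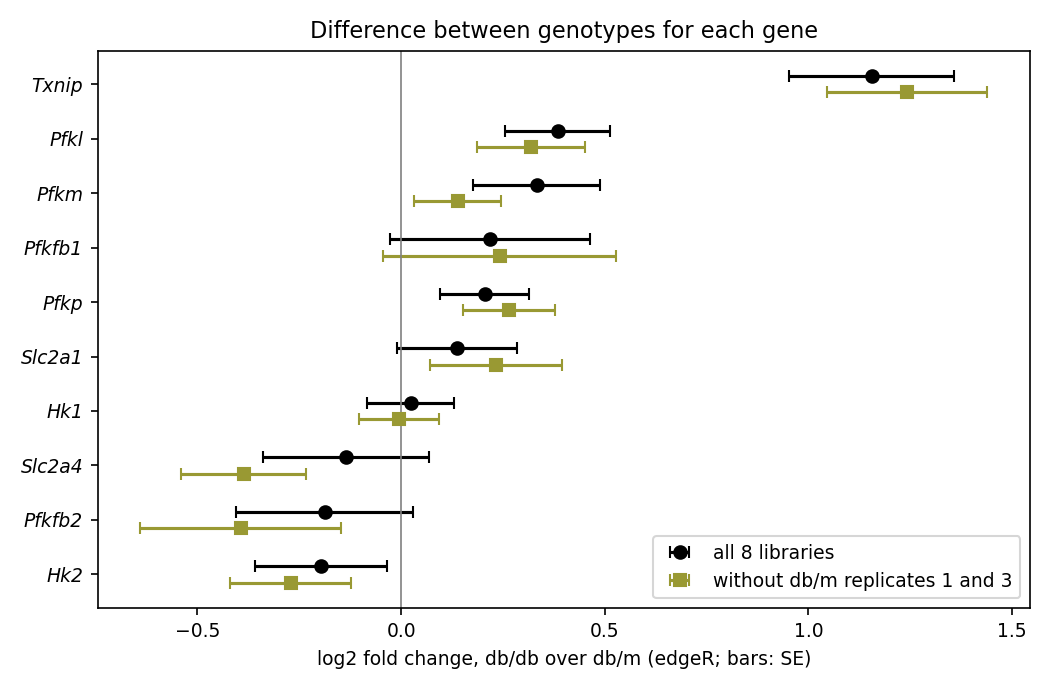
Log2 fold change of each gene, db/db over db/m, from edgeR with all 8 libraries (circles) and without db/m replicates 1 and 3 (squares), with bars of 1 SE. Txnip stands apart at 1.16 and 1.24. Slc2a4 goes from -0.14 to -0.39 and Pfkm from 0.33 to 0.14 when the 2 libraries are left out.

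Pfkfb2 encodes the heart form of the bifunctional enzyme, which insulin signalling activates by phosphorylation, and Pfkfb1 the form of liver and skeletal muscle. Pfkfb2 (ENSMUSG00000026409, chromosome 1, 130689182 to 130729253, minus strand) had 48.2, 57.1, 44.6 and 67.8 CPM in db/m against 59.1, 33.6, 59.9 and 38.5 in db/db. The db/db libraries formed a higher and a lower pair, replicates 1 and 3 against 2 and 4, and the groups overlapped. The log2 fold change was -0.19 (SE 0.22; edgeR, Benjamini-Hochberg adjusted p = 0.690), and -0.39 (SE 0.25) without db/m replicates 1 and 3. Its exons share 1262 bases (17.4% of its length) with Gm29427 on the same strand, which had 0 to 12 counts. They share 154 bases with the antisense gene Yod1, which had 189 to 492 counts against 716 to 1427 for Pfkfb2.

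Pfkfb1 (ENSMUSG00000025271, chromosome X, 150588229 to 150643878, plus strand) was the scarcest member, with 69 to 118 counts per library. It had 3.34, 4.61, 4.88 and 3.28 CPM in db/m against 5.87, 3.99, 3.59 and 5.34 in db/db, with overlapping groups. Its log2 fold change was 0.22 (SE 0.25; edgeR, Benjamini-Hochberg adjusted p = 0.681), and 0.24 (SE 0.29) without db/m replicates 1 and 3. It shares 123 exon bases with the antisense gene Apex2, which had 112 to 163 counts. Of the other makers and breakers of fructose 2,6-bisphosphate, the log2 fold change was -0.31 (SE 0.23) in Pfkfb4 and 0.25 (SE 0.19) in Tigar, a phosphatase of the same metabolite, whose sign turned without db/m replicates 1 and 3 (-0.02, SE 0.13), and 0 of the 3 in that list passed edgeR (0 at an unadjusted p under 0.05; none by DESeq2 or limma-voom).

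Within db/db the members did not all order the libraries alike. Replicate 2 was the lowest of the 4 in Slc2a4, Slc2a1, Hk1, Hk2, Pfkm and Pfkfb2, and the highest in Txnip and Pfkl. In Slc2a4, Slc2a1, Hk2 and Pfkfb2 replicates 2 and 4 were below replicates 1 and 3, and in Txnip and Pfkl both were above them. This is a description of 4 libraries, with no test. Leaving out db/db replicate 2 brought the log2 fold change of Slc2a4 to -0.02, of Hk2 to -0.08 and of Pfkfb2 to -0.05, and that of Slc2a1 to 0.22. Over all single libraries left out, the range was -0.27 to -0.02 in Slc2a4, -0.27 to -0.08 in Hk2, -0.31 to -0.05 in Pfkfb2, 0.07 to 0.22 in Slc2a1 and 0.10 to 0.33 in Pfkfb1. None of these 5 genes passed edgeR in any of these comparisons (lowest adjusted p = 0.495, in Slc2a4).

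Levels of different genes can be compared only per length, as CPM per kb of merged exons, a length that counts the exons of every annotated transcript and so understates genes with many alternative exons. On this scale the order in db/m was Txnip (145 ± 30.2), Slc2a4 (112 ± 26.2), Pfkm (108 ± 19.4), Hk2 (60.3 ± 6.80), Hk1 (24.1 ± 0.898), Pfkl (9.63 ± 1.14), Pfkfb2 (7.50 ± 1.43), Slc2a1 (4.41 ± 0.364), Pfkp (2.58 ± 0.219) and Pfkfb1 (1.0 ± 0.209), each as mean ± SD with n = 4. The ranges of Txnip and Slc2a4, of Slc2a4 and Pfkm, and of Pfkl and Pfkfb2 overlapped, and those of all other neighbours in this order lay apart. In db/m replicates 2 and 4 alone, Slc2a4 (132 and 134) lay above Pfkm (124 and 123), and Txnip (152 and 119) on either side of Slc2a4. In db/db the order was the same except that Pfkm (137 ± 9.39) came before Slc2a4 (102 ± 18.8). There Txnip (322 ± 66.1) lay above Pfkm without overlap, and Pfkfb2 and Slc2a1 were the neighbours whose ranges overlapped.

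**Figure D4:**
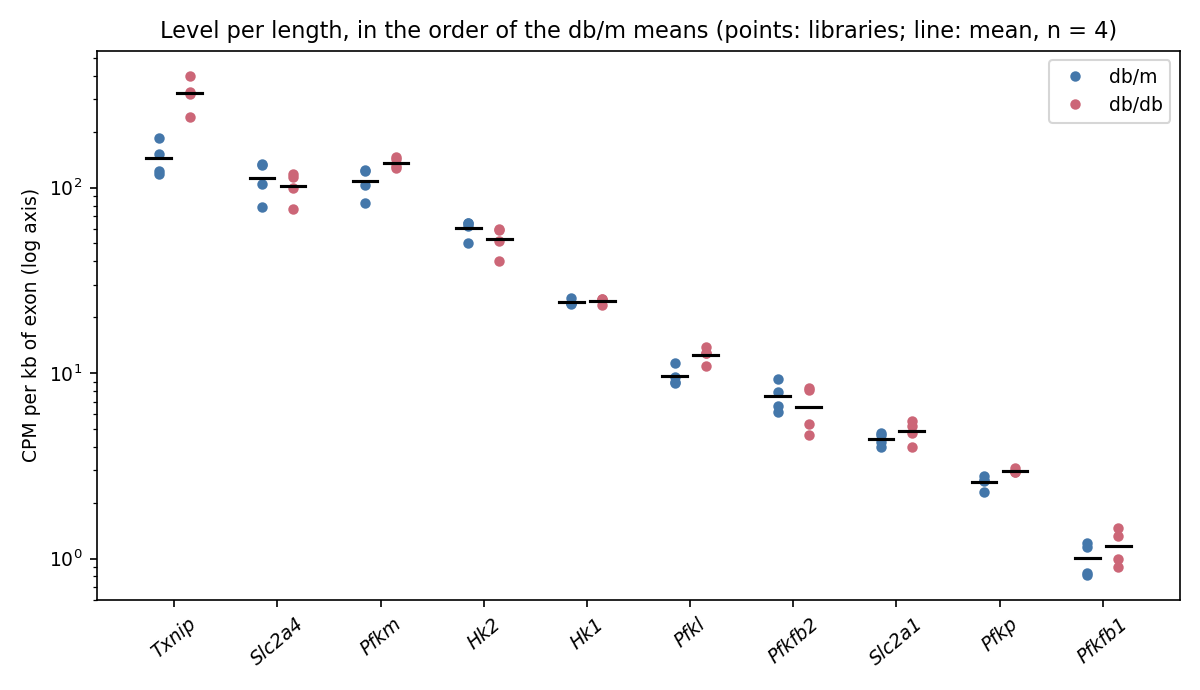
CPM per kb of merged exons on a log axis for each gene, in the order of the db/m means. Points are libraries and lines are means (n = 4 per genotype). Txnip goes from 145 in db/m to 322 in db/db. The means of Pfkm and Slc2a4 are in the other order in db/db, but in db/m their ranges overlap.

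The transcription factors known to act on these genes were described by a list of 13, all tested, of which 0 passed edgeR over all genes (2 higher and 1 lower at an unadjusted p under 0.05). Klf15, a glucocorticoid-responsive factor known to raise Slc2a4 in muscle, had 51.1, 42.1, 53.2 and 37.5 CPM in db/m against 67.3, 68.3, 68.9 and 58.6 in db/db. All its db/db libraries were above all db/m libraries (log2 fold change 0.52, SE 0.14; edgeR, Benjamini-Hochberg adjusted p = 0.243). It passed by DESeq2 (adjusted p = 0.0389) and limma-voom (adjusted p = 0.0310), and by edgeR without db/m replicates 1 and 3 (0.72, SE 0.12; adjusted p = 0.0348) and without db/m replicate 3 alone (0.60; adjusted p = 0.0489).

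The 2 glucose-sensing factors that act on Txnip differed in their values. Mlxip, encoding MondoA, had 98.5 ± 19.7 CPM in db/m against 97.4 ± 8.13 in db/db (SD, n = 4; log2 fold change -0.02, SE 0.15; 0.05 without db/m replicates 1 and 3). Mlxipl, encoding ChREBP, had 21.4 ± 1.43 and 13.0 ± 3.08 CPM, with all db/db libraries below all db/m libraries (-0.71, SE 0.18). Mlxipl passed by DESeq2 (adjusted p = 0.0242) and not by edgeR (Benjamini-Hochberg adjusted p = 0.216). Hif1a, the hypoxia-inducible factor that acts on Slc2a1 and the glycolytic genes, had 95.2 ± 11.2 and 119.7 ± 11.5 CPM without overlap (0.33, SE 0.13), and Mef2a, which acts on Slc2a4, had 0.05 (SE 0.14; 0.15 without db/m replicates 1 and 3), neither passing edgeR over all genes.

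Below phosphofructokinase, 10 of 14 tested genes of later glycolysis had a positive log2 fold change (median 0.36), and 0 passed edgeR over all genes (0 higher and 1 lower at an unadjusted p under 0.05; none by DESeq2 or limma-voom). The median was 0.05 when db/m replicates 1 and 3 were left out, and 0.12 without replicate 3 alone. Pgam2, the muscle phosphoglycerate mutase, had 346 ± 145 CPM in db/m against 489 ± 21.4 in db/db (0.50, SE 0.32; 0.20 without both). The 1 lower gene was Eno2, the neuronal enolase, with 4.46 ± 1.62 against 2.29 ± 0.879 CPM (-0.96, SE 0.36; -0.47 without both). Eno3, the muscle enolase, chosen after its values were seen, had 440, 477, 183 and 419.5 CPM in the db/m libraries against 300.3, 223, 335 and 282 CPM (-0.41, SE 0.27). Without db/m replicates 1 and 3 it was -0.66 (SE 0.14), which did not pass edgeR (Benjamini-Hochberg adjusted p = 0.0882). For 8 of the 16 genes listed, among them Gapdh and Ldha, near-identical pseudogenes or retrogenes held more counts than the gene itself, so their values are uncertain. None of the 10 members has such a near-identical copy.

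Branches that leave early glycolysis gave no gene past edgeR over all genes in the pentose phosphate (8 tested), hexosamine (6 tested) and polyol (4 tested) lists, where DESeq2 and limma-voom also called 0. At an unadjusted p under 0.05 there were 0 higher and 2 lower, 0 higher and 1 lower, and 1 higher and 0 lower. The 1 higher gene was Khk, the fructose kinase, with 6.68 ± 2.03 CPM in db/m against 10.6 ± 1.35 in db/db (SD, n = 4; log2 fold change 0.67, SE 0.23) and no overlap. Without db/m replicates 1 and 3 Khk had 0.35 (SE 0.19) and an unadjusted edgeR p of 0.0916. Akr1b3 and Sord, 2 of the 4 polyol genes, have near-identical copies that held more counts than the genes, so the values of this list are uncertain. Over all 10 neighbour lists, 80 of 90 genes were tested and their median log2 fold change was 0.07, and 0.01 without db/m replicates 1 and 3.

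**Figure D5:**
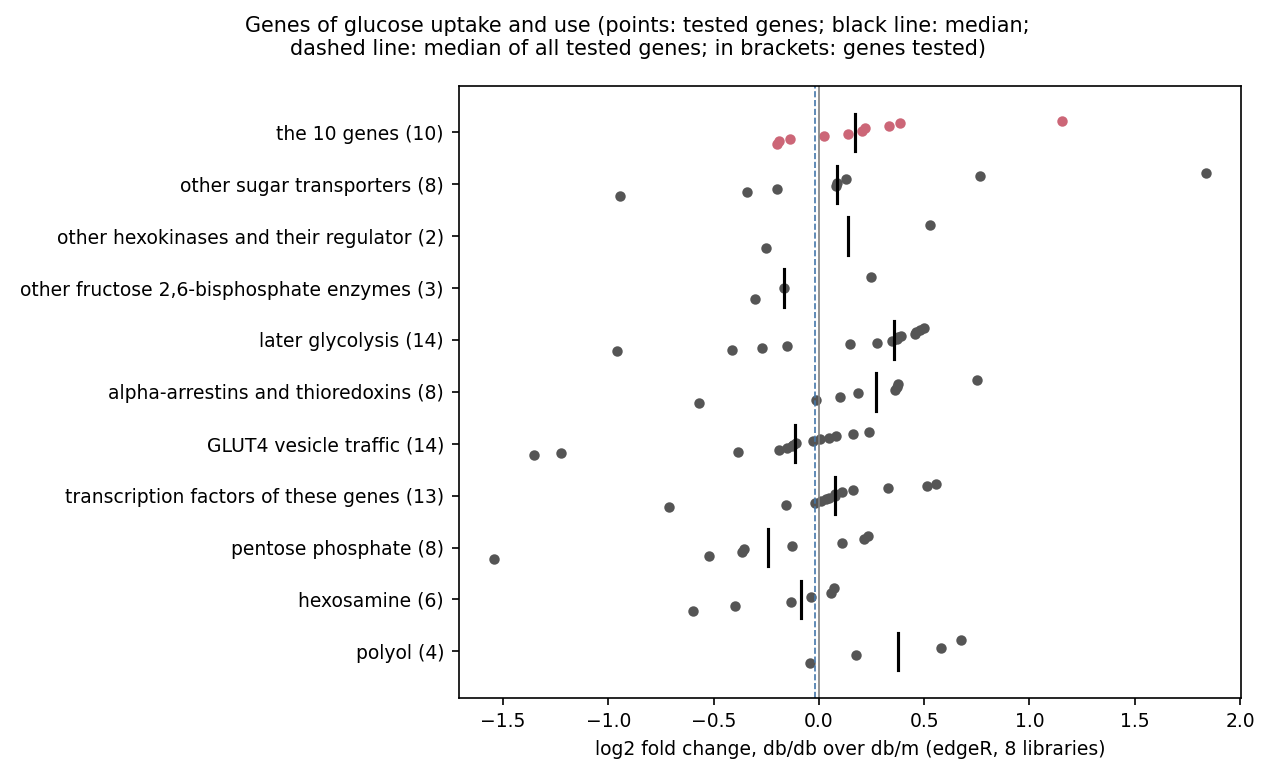
Log2 fold change, db/db over db/m, of every tested gene in the set of 10 and in the 10 lists of related genes, from edgeR with all 8 libraries. Black lines are list medians, from -0.24 (pentose phosphate) to 0.38 (polyol; without db/m replicates 1 and 3 these were -0.03 and 0.29), and the dashed line is the median of all tested genes, -0.02. The single red point beyond 1 is Txnip.

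The genes most like 4 of the members across the libraries were found by Pearson's r of log2 CPM over all 8 libraries, among 12286 tested genes with a mean of at least 5 CPM. The 8 points share the genotype difference and the libraries that stand apart, so r is a description. Most like Slc2a4 were Lmod3 (0.96), a sarcomeric leiomodin, Kbtbd12 (0.96) and Reep1 (0.95). Most like Txnip were P3h4 (0.98), March3 (0.97) and Edn3 (0.96). Hk2 was most like Lpin1 (0.98), a phosphatidate phosphatase that also acts as a transcriptional coactivator, Cbx2 (0.98) and Snx27 (0.97). Pfkfb2 was most like Ky (0.95), Epn3 (0.95) and Agbl5 (0.94). Over the 6 libraries other than db/m replicates 1 and 3 the 3 most alike genes were others in each case, apart from Lpin1 for Hk2 (0.99).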

How the data were processed

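RNA from hearts of both genotypes (4 libraries each, grouped by the genotype in the labels) was sequenced. Libraries were made with the NEBNext Ultra RNA kit from 3 µg of total RNA, per the labels' protocols. Per the file headers and the values, the authors deposited raw read counts by Ensembl gene, with a length for each gene. The submitters' processing notes name the build mm10. The aligner, counter, annotation release and strand setting were not given in the sources used here. All 8 single-library files held the same counts as the table.

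Symbols came from GENCODE M21 (55480 of 55573 identifiers matched), promoter sequences from RefSeq (9 of 10 members matched; Slc2a4 has no entry). The main test used edgeR 4.0.16 (R 4.3.3): filterByExpr (minimum count 10, minimum total 15), TMM factors, robust quasi-likelihood F test on genotype, two-sided, Benjamini-Hochberg over 17411 genes, threshold 0.05. The SE was derived from the test. Alternatives were DESeq2 1.42.0, limma-voom 3.58.1 with sample quality weights, other scalings and filters, a replicate block, no robust dispersion and leaving out each library; the fit without db/m replicates 1 and 3 was added after seeing the data. In simulated data edgeR recovered 76 of 100 genes changed by 1 on the log2 scale, limma-voom 70 and DESeq2 91. The simulation held no libraries that stand apart as db/m replicates 1 and 3 do, and its changed genes were picked among those with higher levels. These counts therefore do not give the recovery in the real libraries. Of 17135 genes in the simulation, false calls among unchanged genes were 10 for edgeR, 9 for limma-voom and 44 for DESeq2. The passes by DESeq2 alone (Arrdc2, Mlxipl and Slc5a1) are less certain, since edgeR and limma-voom did not share them. Near-identical copies were found with BLAST 2.17.0 (identity at least 95% over at least 0.5 of the copy). The members, the lists of related genes and the rule for named genes were chosen with earlier results of these data known. The rule names all members, any gene of the lists of other transporters, hexokinases and bifunctional enzymes, any cell type marker, up to 4 genes with the smallest p and 2 with the highest level in each other list, and the 3 genes most like Slc2a4, Txnip, Hk2 and Pfkfb2. Mlxip, Eno3 and the genes named for overlapping exons or near-identical copies fall outside it and were chosen after their values were seen. Precision is limited by 4 libraries per genotype, and for Pfkfb1 and Slc5a1 also by low counts.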

Additional observations from a re-analysis of the deposited data

Results flagged for a closer look

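Among the 10 genes, each group of 4 libraries was searched for a library far from the others, by the gap to its nearest neighbour as a share of the group's range (Dixon's 95% critical value). Of 20 groups 2 had one, and chance gives about 1 in 20. Hk1 had 217 CPM in db/m replicate 2, above the 3 other db/m libraries. Hk2 had 299.7 CPM in db/m replicate 1, below the 3 other db/m libraries and within the range of db/db.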

How the results depend on the processing

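By edgeR with all 8 libraries 1 gene of all tested passed the threshold. The count was 377 by DESeq2, 101 by limma-voom, 27 with no filter, 46 without db/m replicates 1 and 3, and 0 to 106 when single libraries were left out. Among the members the count was 0, and 1 (Txnip) by DESeq2, by limma-voom, with no filter and without db/m replicates 1 and 3, and 0 to 1 when single libraries were left out. Among the neighbour genes it was 0, and 4 by DESeq2, 1 by limma-voom, 1 without db/m replicates 1 and 3, and 0 to 1 when single libraries were left out. The cause of these differences was not tested. At an adjusted p of 0.1 the members' count was 0.

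Replicate numbers are shared between the groups, but same-numbered libraries did not deviate together (correlations of -0.09 to 0.06), so the numbers were not taken as pairs. With the replicate block 5 genes passed, 0 of them members, and Txnip had 1.15 (edgeR, adjusted p = 0.142).

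Under the 18 alternatives the sign of the fold change was the same in 9 of the 10 members. Hk1 was reversed with library totals only (-0.089) and without db/m replicates 1 and 3 (-0.0053).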

Other observations

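Some genes related to glucose use followed the 2 db/m libraries with adipocyte and atrial counts. Pfkfb3, the inducible maker of fructose 2,6-bisphosphate, had 42.9 and 89.3 CPM in db/m replicates 1 and 3, 12.6 and 18.6 in replicates 2 and 4, and 23.6 to 42.3 in db/db. Its log2 fold change was -0.17 (SE 0.51) with all libraries and 1.22 (SE 0.26) without those 2, and neither passed edgeR over all genes (Benjamini-Hochberg adjusted p = 0.890 and 0.138). Tbc1d1, a relative of Tbc1d4, went from -1.35 to -0.24, Sort1, a sorting receptor of GLUT4 vesicles, from -1.23 to -0.02, and Tkt, the transketolase of the pentose phosphate branch, from -1.54 to -0.07 when both were left out. The part of adipocyte or atrial cells in these values was not tested.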
